A study of Mus musculus with 278 samples.

Results

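The genes described are 10 genes of the Notch pathway, found by symbol among the 14145 genes of the deposited table, and all 10 were present. Notch1, Notch2 and Notch3 encode receptors. Jag1, Jag2 and Dll1 encode the membrane-bound ligands that activate them. Rbpj and Maml1 encode the nuclear proteins that carry the signal to DNA. Hes1 and Hey1 encode transcriptional repressors that are classical targets of the pathway. Each gene was followed in 270 single cells, by library series and by treatment label, to ask which cells held transcripts of the ligands (senders), of the receptors (receivers) or of both.

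Notch signalling passes between touching cells. A ligand on one cell pulls on a receptor on its neighbour, the receptor is cut by the ADAM10 protease and then by the gamma-secretase complex, and the freed intracellular part joins RBPJ and a Mastermind protein on DNA. In the epidermis Notch signalling is known for promoting the exit of basal keratinocytes into differentiation, and Jag1 is itself known as a target of beta-catenin in the hair follicle.

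The study asked how keratinocytes respond to neighbours in which Wnt signalling is switched on. Keratinocytes from adult mouse dorsal skin were grown as mixtures of 9 parts wild type (WT) and 1 part K14ΔNβ-cateninER cells. The latter express, from the keratin 14 promoter, a stabilised beta-catenin joined to an oestrogen receptor domain, which 4-hydroxy-tamoxifen (4OHT) activates. Treated mixtures received 200 nM 4OHT for 24 h and untreated mixtures received DMSO, so both conditions contained transgenic cells and differed in the drug. Single cells were captured on a microfluidic chip for medium-sized cells, which leaves out large differentiated ones. The paper identified transgenic cells by reads from the transgene and left them out of its analysis. The labels used here do not mark them, so they may be among the cells described. The transgenic cells were not told apart here, so senders and receivers cannot be assigned to either genotype. Effects of 4OHT itself, of activated neighbours and of activated beta-catenin within the transgenic cells cannot be told apart either. Library names fall into 2 series, AG and GHA501A, each with both conditions. The AG series held 66 untreated and 64 treated cells, and the GHA501A series held 71 untreated and 69 treated cells. These 4 library sets, 2 per condition, were taken as the replicates. No source used here says whether they came from separate cultures or animals, so p-values measure only the spread between these sets.

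The cells carried between 2538 and 7592 genes at TPM (a transcript level scaled for gene length and for the total of each cell) over 1, with a median of 6288, and 21 cells had fewer than 5000. Every cell sums to 1000000 TPM, so read depth is unknown and the precision of a low value cannot be given. No cell columns were identical (0 of the labelled cells). The label calls all cells keratinocytes, and the defining markers went against it in most of the GHA501A cells. Cells were scored by the mean log2(TPM + 1) of 14 keratinocyte genes minus that of 10 fibroblast genes, and called keratinocyte-like above 1 and fibroblast-like below -1. All 66 untreated and 62 of 64 treated AG cells were keratinocyte-like. In GHA501A, 62 of 71 untreated and 57 of 69 treated cells were fibroblast-like, and 8 and 12 were keratinocyte-like. The median of Krt14, a basal keratin, was 4864 TPM in untreated AG cells and 1.89 TPM in the fibroblast-like untreated GHA501A cells, where the median of the collagen gene Col1a1 was 1324 TPM. The summed TPM of the 14 keratinocyte genes ran from 1571 to 94833 in AG, and its medians were 35.7 and 133 TPM in untreated and treated GHA501A cells. That of the 10 fibroblast genes had medians of 653 and 767 TPM in untreated and treated AG cells and 3821 and 3560 TPM in GHA501A. Of 5 immune markers fixed, only Lyz2, the lysozyme gene of macrophages, was in the table, with medians of 108.3 and 56.2 TPM in untreated and treated fibroblast-like cells, 3.07 and 4.53 TPM in keratinocyte-like GHA501A cells and 23.97 and 31.3 TPM in keratinocyte-like AG cells, and its part in the results was not tested. Only 3 cells lay within 1 of a score of 0. Series and cell type are therefore nearly the same split, and values over all cells of a GHA501A set mix the classes. Values by class are given beside the main ones. At the 10 genes, bulk means of a set mix the share of each class with the level per cell.

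The promoters of Rbpj and Jag1 are shown because Rbpj showed the largest difference between the series and Jag1 had the highest mean of the 10 genes in all 4 sets. They were read from the RefSeq promoter table (mouse build GRCm38.p6), 5′ to 3′ on the gene's own strand, up to the first base of the window that an annotated exon covers. The Rbpj window belongs to a RefSeq start site inside the span of the gene given next, not to its outermost start. Capitals mark TGGGAA or its complement TTCCCA, the core that RBPJ binds.
Rbpj, chr5:53590096-53590213, plus strand: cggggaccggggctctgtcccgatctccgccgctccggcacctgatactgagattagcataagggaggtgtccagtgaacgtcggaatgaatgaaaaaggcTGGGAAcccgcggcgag
Jag1, chr2:137116645-137116770, minus strand: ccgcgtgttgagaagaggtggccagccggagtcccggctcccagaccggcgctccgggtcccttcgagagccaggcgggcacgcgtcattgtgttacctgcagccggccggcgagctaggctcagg
The table held promoters for 8 of the 10 genes. Those of the targets Hes1 and Hey1 were missing, so they were not searched. Over windows of 300 bases around the start site, TGGGAA or TTCCCA was found in 1 of the 8, Rbpj itself, and in 25.6% of all 32851 promoters. The TCF/LEF core CTTTGA or its complement TCAAAG, through which beta-catenin reaches DNA, was found in 2 of the 8, Jag1 and Maml1, and in 16.003% of all promoters. The Jag1 match lies outside the stretch printed above. These matches are letters in a window and were not tested for binding.

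In the GENCODE M21 annotation of GRCm38, Jag1 (ENSMUSG00000027276) lies on the minus strand at chr2:137081456-137116644 and Notch2 (ENSMUSG00000027878) on the plus strand at chr3:98013527-98150361. Rbpj (ENSMUSG00000039191) lies on the plus strand at chr5:53466152-53657362 and Hes1 (ENSMUSG00000022528) on the plus strand at chr16:30064384-30067796. All 10 are protein-coding genes, and their values are per gene.

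Jag1 was the most abundant of the ligands and Notch2 the most abundant of the receptors in all 4 sets (the plot of the 10 genes by cell). TPM is scaled for gene length, but reads with several alignments were left out by the authors, so levels of different genes compare only roughly. Jag1 made up between 98.4% and 99.3% of the summed mean TPM of the 3 ligands. Notch2 made up between 69.01% and 95.4% of that of the 3 receptors.

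**Figure D1:**
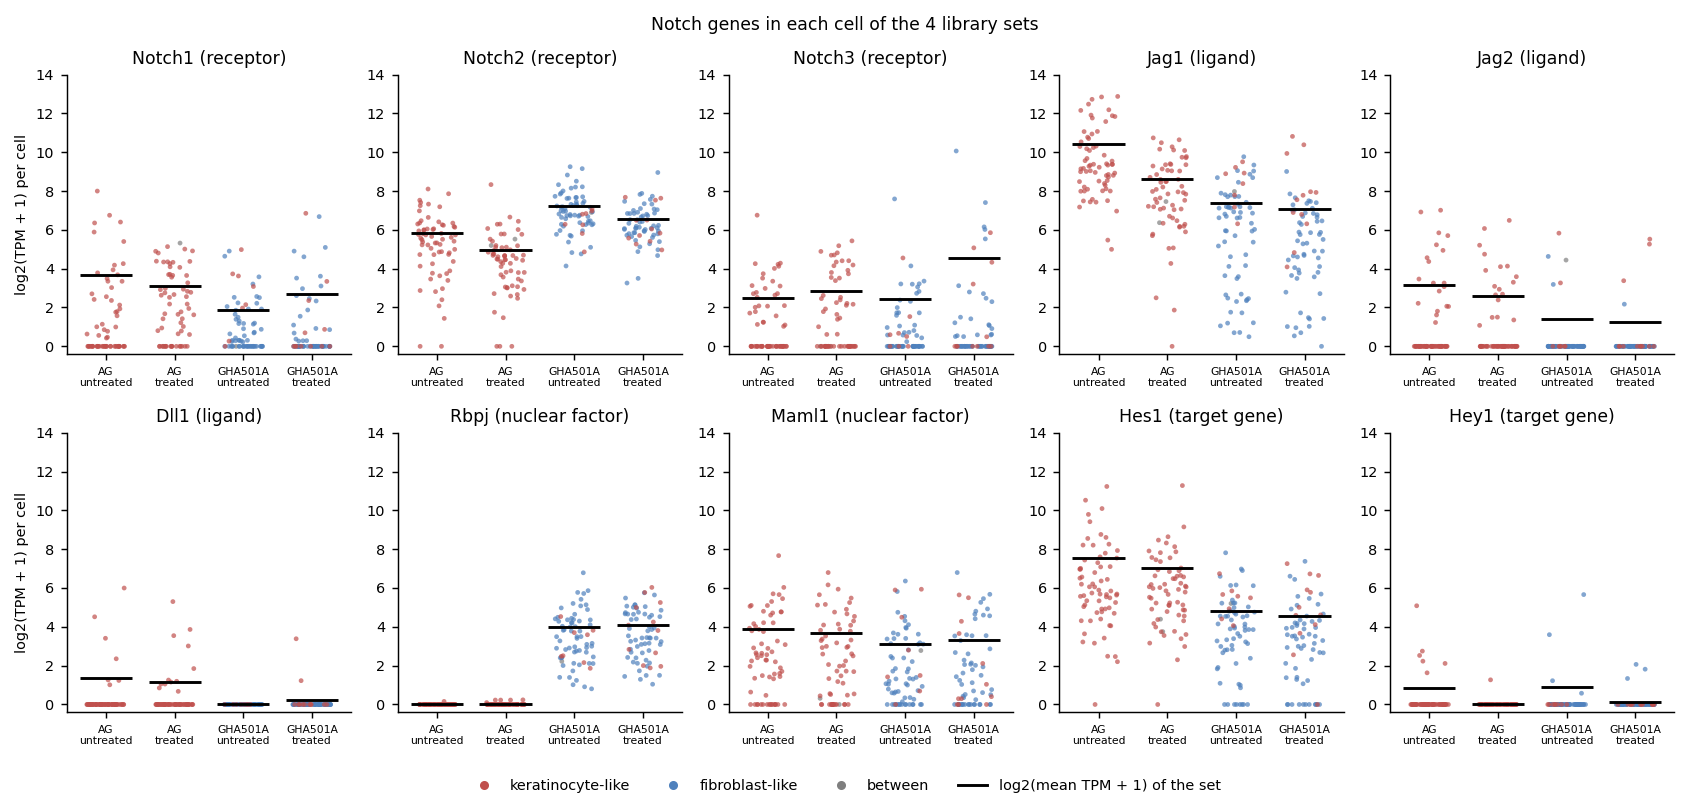
Each point is 1 cell and each panel 1 gene, with log2(TPM + 1) on the vertical axis and the 4 library sets on the horizontal axis; black bars give log2(mean TPM + 1) of a set and colours give the marker class. Jag1, Notch2 and Hes1 were detected in most cells of every set, Rbpj lay at or near 0 in AG and above TPM 1 in all but 2 of the 140 GHA501A cells, and Jag2, Dll1 and Hey1 were found in few cells.

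Among the receptors, Notch2 was found in 265 of the 270 cells (TPM over 1, here and below). The mean was 57.04 TPM in untreated and 30.7 TPM in treated AG cells, and 147.6 TPM in untreated and 94.3 TPM in treated GHA501A cells. The single-cell medians followed the same order, at 44.4, 21.8, 118.2 and 69.1 TPM. Both GHA501A means were above both AG means, and in each series the treated mean was the lower.

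Notch1, the receptor best known for driving keratinocyte differentiation, was sparser. It was detected in 39.4% of untreated AG cells (95% Wilson interval 28.5 to 51.5), 64.1% of treated AG cells (51.8 to 74.7), 38.03% of untreated GHA501A cells (27.6 to 49.7) and 24.6% of treated GHA501A cells (15.99 to 35.96). The intervals cover counting of cells only. The means went the other way from the shares in both series. In AG the mean was 11.7 TPM untreated and 7.65 TPM treated, and in GHA501A it was 2.70 and 5.44 TPM. A single cell with 254 TPM held 32.9% of the untreated AG sum, and 1 cell with 115 TPM held 30.5% of the treated GHA501A sum.

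Notch3 was detected in between 27.5% and 48.4% of the cells of a set. Its mean was 4.54 and 6.13 TPM in untreated and treated AG cells, and 4.44 and 22.8 TPM in untreated and treated GHA501A cells. The highest mean rested on few cells: 1 fibroblast-like cell with 1068 TPM held 67.95% of it, and without that cell the mean was 7.40 TPM.

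Among the ligands, Jag1 was detected in 262 of the 270 cells. Its mean was 1365 TPM in untreated and 389.8 TPM in treated AG cells, against 163.99 and 133 TPM in untreated and treated GHA501A cells. The medians were 608, 235, 102.6 and 53.05 TPM in the same order. Untreated AG cells ranged from 30.9 to 7498 TPM, with 66 of 66 above TPM 1, and stood above the other 3 sets in mean and median.

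Jag2 and Dll1 were ligands of a minority. Jag2 was found in 28.8% of untreated and 28.1% of treated AG cells, and in 7.04% and 5.80% of untreated and treated GHA501A cells, with means of 7.89, 4.98, 1.65 and 1.38 TPM. Dll1, the ligand known to mark clusters of human epidermal stem cells, was found in 10.6% of untreated and 15.6% of treated AG cells. In GHA501A it was listed at 0 in all 71 untreated cells, which allows, by counting alone, a share of up to 4.23% of cells listed above 0 and, with depth unknown, does not limit the share of cells that hold it. It was found in 2 of 69 treated cells. Both minority ligands were thus found in a larger share of AG than of GHA501A cells in each condition.

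Of the nuclear factors, Maml1 was detected in 72.7% and 65.6% of untreated and treated AG cells and in 60.6% and 53.6% of untreated and treated GHA501A cells. Its means were 13.7, 11.9, 7.72 and 8.96 TPM, with more cells detected and higher means in AG. Rbpj was above TPM 1 in no AG cell (0 of 66 untreated and 0 of 64 treated), with a highest value of 0.180 TPM. In GHA501A it was above TPM 1 in 69 of 71 untreated and 69 of 69 treated cells, with means of 14.8 and 16.3 TPM. The lowest GHA501A cell had 0.749 TPM of Rbpj, above the highest AG cell. How many of all genes are split between the series in this way was not counted.

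Of the targets, Hes1 was found in 98.5% and 98.4% of untreated and treated AG cells and in 85.9% and 82.6% of untreated and treated GHA501A cells. Its means were 185.02, 129, 26.8 and 22.4 TPM, and its medians 54.5, 58.3, 15.2 and 10.6 TPM. The treated AG median was thus slightly above the untreated one although its mean was below it. Hey1 was found in 13 of the 270 cells, 6, 1, 3 and 3 in the 4 sets. All its set means were under 1 TPM, so that differences in Hey1 rest on single cells.

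Nearly every cell held both a ligand and a receptor transcript. At least 1 of the 3 ligands was above TPM 1 in 100% of untreated and treated AG cells, 95.8% of untreated GHA501A cells and 94.2% of treated GHA501A cells. At least 1 of the 3 receptors was found in 98.5% and 96.9% of untreated and treated AG cells and in 100% of both GHA501A sets. Cells with both came to 98.5%, 96.9%, 95.8% and 94.2%. The exceptions in AG were 1 untreated and 2 treated cells with a ligand and no receptor. In GHA501A they were 3 untreated and 4 treated cells with a receptor and no ligand. With 2 sets per condition an exact test over sets cannot give a two-sided p below 0.333, so these shares carry no test.

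The balance of Jag1 and Notch2 differed between the series (the plot of Jag1 against Notch2). Jag1 was above Notch2 in 65 of 66 untreated AG cells and 59 of 64 treated AG cells. In GHA501A the same held in 32 of 71 untreated and 27 of 69 treated cells. The median of the Jag1 minus Notch2 difference on the log2(TPM + 1) scale was 4.34 in untreated and 3.71 in treated AG cells, and -0.33 and -0.58 in untreated and treated GHA501A cells. The 8 and 12 keratinocyte-like GHA501A cells had medians of 1.99 and 1.41, above the -0.63 and -1.10 of their fibroblast-like counterparts and below those of AG.

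**Figure D2:**
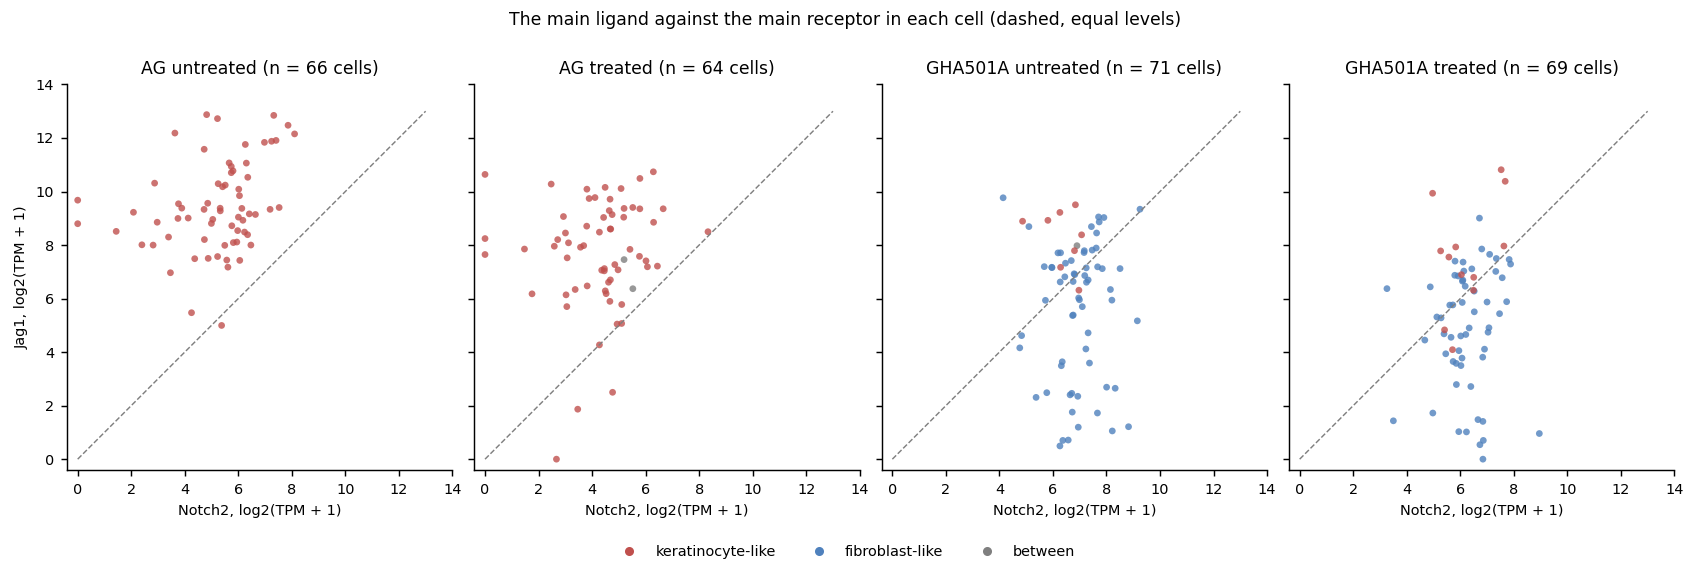
Each point is 1 cell, with Notch2 on the horizontal and Jag1 on the vertical axis, both as log2(TPM + 1), in 1 panel per library set; the dashed line marks equal levels and colours give the marker class. AG cells lie above the line in 65 of 66 untreated and 59 of 64 treated cells, whereas GHA501A cells spread to both sides of it.

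A second ligand was found in more AG than GHA501A cells. Jag2 or Dll1 was found in 36.4% of untreated (25.8 to 48.4) and 43.8% of treated AG cells (32.3 to 55.9), and in 7.04% and 7.25% of untreated and treated GHA501A cells. By class these were 2 of 8 and 4 of 12 keratinocyte-like cells (25% and 33.3%) against 3.23% and 1.75% of fibroblast-like ones, and the intervals of the keratinocyte-like shares (7.15 to 59.1 and 13.8 to 60.9) hold the AG shares. Cells with 2 or more receptors came to 63.6% and 73.4% in untreated and treated AG, and to 49.3% and 43.5% in GHA501A. Notch1 together with Notch2 was found in 37.9% of untreated and 64.1% of treated AG cells. In GHA501A both were found in 38.03% of untreated and 24.6% of treated cells. Notch2 was found in nearly all cells, so these shares largely repeat those of Notch1 alone.

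Across cells within a set, the members did not move closely together. Over the pairs of members detected widely enough to compare, Jag1 with Hes1 had a Pearson r of 0.24 in 66 untreated AG cells, -0.03 in 64 treated AG cells, 0.18 in 71 untreated GHA501A cells and 0.21 in 69 treated GHA501A cells. Notch2 with Hes1 ranged from -0.13 to 0.14. The largest r of a member pair was 0.35, for Notch2 with Rbpj in untreated GHA501A cells, beside -0.01 in treated GHA501A cells. Notch2 with Jag1 ranged from -0.05 in untreated GHA501A to 0.30 in untreated AG cells. These values describe cells of 1 library set, carry no p and are weak. In untreated AG cells Hes1 was higher where fewer genes were detected (r = -0.51), and the part of that in its level was not tested.

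The genes whose pattern across cells was most like that of Jag1 were Itga6, Col17a1 and Lama3, by the mean of the within-set r over the 4 sets among 5990 genes. They encode an integrin, a collagen and a laminin chain that anchor basal keratinocytes to the basement membrane. Itga6 had a mean r of 0.44, with 0.48, 0.42, 0.41 and 0.45 in the 4 sets, Col17a1 had 0.41 and Lama3 had 0.41. Itga6 and Col17a1 are also among the keratinocyte genes of the marker score, with which Jag1 had r of 0.32 and 0.41 in untreated and treated GHA501A cells. Within fibroblast-like GHA501A cells alone r was 0.26 and 0.09 for Itga6, 0.05 and 0.04 for Col17a1, and 0.12 and 0.10 for Lama3. For Notch2 the nearest genes were Kmt2d (0.37), Kdm6b (0.37) and Krit1 (0.36), and for Maml1 they were Zfp292 (0.33), Dusp10 (0.27) and Csnk2a2 (0.26). For Hes1 they were Ctcfl (0.41), Fam124a (0.40) and Ccr4 (0.39), whose r was lower in GHA501A (at most 0.33) than in AG (at least 0.43). Rbpj gave Drc3 (0.30), Epb41l3 (0.28) and Kctd3 (0.28), but in AG it is listed near 0 and the likeness there has no content.

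The comparison of treated with untreated cells addresses whether the Notch genes differ with 4OHT treatment of the mixtures. It cannot separate the drug, the activated neighbours and the activated transgenic cells themselves. It was made by limma on log2(mean TPM + 1) of the sets, over the 12355 genes that passed TPM 1 in at least 6 cells, with the series as a block and Benjamini-Hochberg adjustment. A gene was called at adjusted p below 0.05 and a difference beyond 0.5. None of the 10 genes was called, against 0% of all genes tested (0 of 12355, and 486 at an unadjusted p below 0.05, or 3.93%). At that unadjusted level 3 of the 10 stood out, Jag1, Notch2 and Hey1, all lower in treated cells. In simulated data this comparison found 2% of the genes given a log2 change of 2 and 90% of those given 4, so differences of the size seen here were mostly below what it can call.

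Jag1 was lower in treated cells of both series, by 1.81 in AG and by 0.30 in GHA501A on the log2(mean TPM + 1) scale (treated minus untreated -1.05 ± 0.37 SE over the 4 sets, limma p = 0.0301 unadjusted, adjusted p = 0.998). The AG sets carried most of it. In GHA501A the 2 classes went apart for Jag1, at -0.99 in fibroblast-like and 0.23 in keratinocyte-like cells. Notch2 was at -0.87 in AG and -0.64 in GHA501A (-0.76 ± 0.28 SE, limma p = 0.0341 unadjusted, adjusted p = 0.998). Within GHA501A it was at -0.70 in fibroblast-like and 0.02 in keratinocyte-like cells, and keratinocyte-like cells alone gave -0.43 over both series, beside -0.77 for Jag1. Hey1 differed by -0.81 and -0.77 (limma p = 0.0436 unadjusted, adjusted p = 0.998), on the few cells given above.

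For the remaining members, Notch3 had the largest mean difference of the 10 (1.25, not called). It was at 0.37 in AG and 2.13 in GHA501A (the plot of treated minus untreated by series). Both GHA501A means of Notch3 leaned on their highest cell, which held 60.96% of the untreated and 67.95% of the treated sum. Without the highest cell of each set they were 1.76 TPM untreated and 7.40 TPM treated. Hes1 was at -0.52 and -0.25. Jag2 was at -0.57 and -0.15, and Rbpj at 0.01 and 0.13. Notch1 was at -0.56 in AG and 0.80 in GHA501A, but its AG value was 1.04 or -1.76 with 8 AG cells of conflicting labels added by treatment label or by name prefix. Dll1 was at -0.18 and 0.21, and Maml1 at -0.18 and 0.19. In all, 5 of the 10 were lower in both series (23.8% of all genes were), 2 were higher in both (23.5%) and 3 went in opposite directions (50.3%). Notch1 alone of the 10 moved by 0.5 or more each way, as did 8.26% of all genes. With all the cells limited to keratinocyte-like ones, 0 of the 10 were called as well. The median difference of the 10 was -0.18, beside -0.000888 for all genes.

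**Figure D3:**
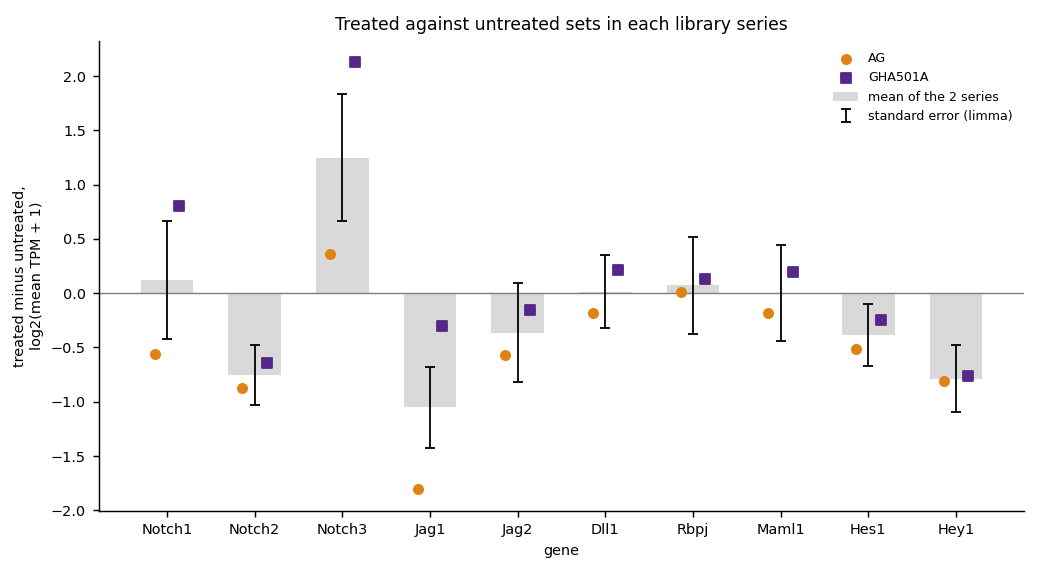
Grey bars give treated minus untreated on the log2(mean TPM + 1) scale for each gene, as the mean of the 2 series, with the limma standard error; circles give AG and squares GHA501A. Jag1, Jag2, Notch2, Hes1 and Hey1 lie below 0 in both series, and Notch1, Dll1 and Maml1 have opposite signs in the 2 series.

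The comparison of AG with GHA501A cells shows how much of the Notch pattern goes with the library series. It used the same 4 sets with treatment as a term. Of the 10 genes 6 were called, beside 33.7% of all genes (4162 of 12355). Hes1, Jag1, Jag2 and Dll1 were higher in AG (13.6% of all genes were called higher), and Notch2 and Rbpj lower (20.1% were called lower). The series differ in library name and in cell make-up, and no source used here says whether culture, capture or library preparation differed too. These cannot be told apart in this comparison.

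Hes1 was 2.61 ± 0.28 (SE) higher in AG on the log2(mean TPM + 1) scale (limma adjusted p = 0.00169), by 2.74 among untreated and 2.48 among treated sets. Jag1 was 2.30 ± 0.37 higher (adjusted p = 0.00588 by limma), by 3.05 untreated and 1.54 treated. Notch2 was 1.47 on this scale below GHA501A (AG minus GHA501A -1.47 ± 0.28, limma adjusted p = 0.0101), by similar amounts in both conditions.

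Jag2 (1.54 ± 0.46, limma adjusted p = 0.0480) and Dll1 (1.15 ± 0.34, limma adjusted p = 0.0452) passed narrowly, and both calls were lost under several other settings of the analysis. The GHA501A means of Jag2 and Dll1 rested on 9 and 2 detected cells. Jag2 and Notch2 also lost their calls with any 1 of the 4 sets left out, Jag1 with any but the treated AG set left out, and Dll1 with either untreated set left out, in a fit that leaves 1 series with a lone set, assumed to vary like the others. Hes1 and Rbpj kept theirs. Notch1, Notch3, Maml1 and Hey1 did not pass, with adjusted p between 0.174 and 0.845 (limma).

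Rbpj differed by -4.04 ± 0.45 (AG minus GHA501A, limma adjusted p = 0.00177), a fitted value that depends on the pseudocount because AG is listed at or near 0. RBPJ is the DNA-binding protein that every Notch receptor signals through. Hes1 had means of 185.02 and 129 TPM in the same AG cells, and whether this bears on Rbpj was not tested. Rbpj was not alone. Of the 14145 genes 55 (0.389%) were above TPM 1 in at most 1% of AG cells and at least 90% of GHA501A cells, and 14 (0.099%) showed the reverse. The 55 include Ctnnb1, the gene of beta-catenin itself, the initiation factor Eif4a1 and the actin-binding gene Tpm1 (named after their values were seen). Their medians were 0 TPM in AG and 56.5, 212 and 43.6 TPM in GHA501A. Rbpj is described here as listed at or near 0 in AG, and whether its transcript was absent there was not tested. Its level is uncertain in both series: RefSeq lists pseudogenes of Rbpj, and reads with several alignments were left out by the authors, whose part in these values was not tested. What lies behind these 55 genes was not tested.

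A wider Notch list was counted beside the 10 genes (the plot of detection by series). Of 54 further pathway genes 41 were in the table and 38 were tested. In treated against untreated cells 0 of 38 were called, beside 0% of all genes (limma, and 1 at an unadjusted p below 0.05). Between the series 14 of the 38 were called, 4 higher and 10 lower in AG, a share near that of all genes (33.7% called, 13.6% higher and 20.1% lower). Those with the largest differences were the histone acetyltransferase gene Kat2b (-4.83), the ubiquitin ligase gene Itch (-4.51), the receptor-processing protease gene Furin (-4.44) and the Notch inhibitor gene Numb (-3.17). All 4 were detected in under 5% of AG cells: 1.54% for Kat2b, 4.62% for Itch, 4.62% for Furin and 3.08% for Numb.

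The median difference over the 38 was -0.09, beside -0.01 for all genes, and that of the 10 was 0.83. Adam10, whose protease makes the first cut of an activated receptor, was found in 100% of cells of both series, with means of 789 and 381 TPM in untreated and treated AG and 292 and 262 TPM in untreated and treated GHA501A.

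**Figure D4:**
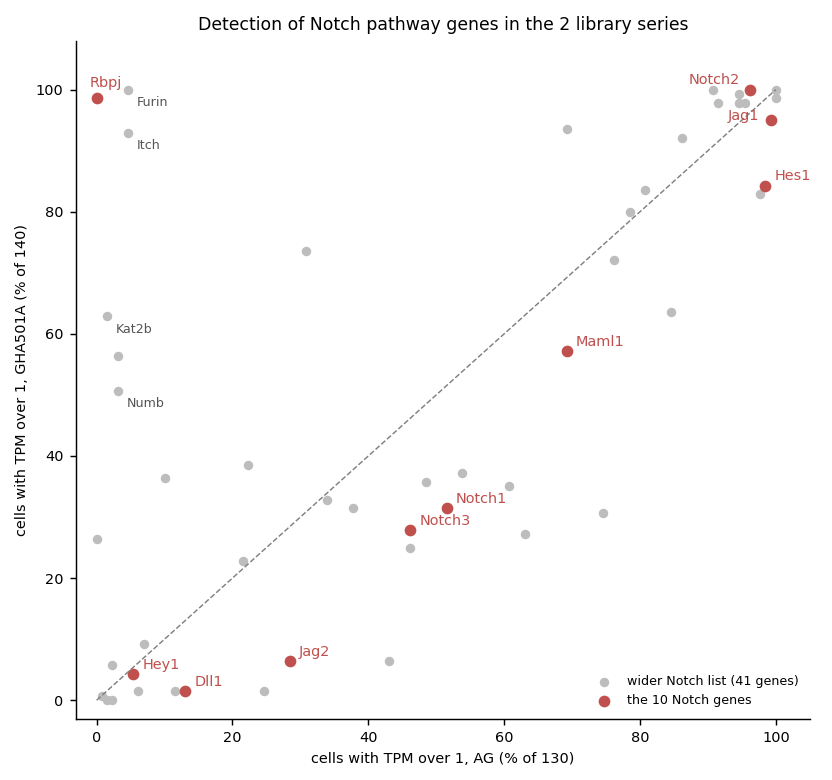
Each point is 1 gene, with the share of the 130 AG cells above TPM 1 on the horizontal axis and the share of the 140 GHA501A cells on the vertical axis, both in percent; red marks the 10 Notch genes, grey the 41 of the wider list, and the dashed line equal shares. Rbpj sits at 0% in AG and 98.6% in GHA501A, near Furin and Itch, while Jag2 and Dll1 lie below the line.

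The GHA501A series holds both cell classes, so they can be compared within 1 library series. Keratinocyte-like cells there had more ligand transcripts than fibroblast-like cells. Jag1 had means of 382 TPM in 8 untreated and 446 TPM in 12 treated keratinocyte-like cells, against 134.5 and 67.02 TPM in 62 untreated and 57 treated fibroblast-like cells. Jag2 had 8.06 and 7.65 TPM against 0.514 and 0.0615 TPM, and was found in 2 of 8 and 3 of 12 keratinocyte-like but in 2 of 62 and 1 of 57 fibroblast-like cells. Without the highest cell of each, the keratinocyte-like means of Jag2 were 1.23 and 4.26 TPM. Dll1 was found in 2 keratinocyte-like cells and in none of the 119 fibroblast-like cells.

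Hes1 had means of 46.1 and 48.3 TPM in untreated and treated keratinocyte-like cells against 24.1 and 16.9 TPM in fibroblast-like cells, so both keratinocyte-like means were the higher. Notch1 was on average 1.41 higher in keratinocyte-like cells on the log2(mean TPM + 1) scale (limma adjusted p = 0.534). In treated cells 1 keratinocyte-like cell held 88.6% of the Notch1 sum. Without the highest cell of each class the treated Notch1 means turned, to 1.34 TPM in keratinocyte-like and 2.58 TPM in fibroblast-like cells. The untreated ones were then 5.37 and 1.55 TPM. Notch2 had 89.7 and 90.9 TPM against 155.5 and 95.04 TPM, with the keratinocyte-like means the lower. Rbpj was above TPM 1 in all 8 and all 12 keratinocyte-like cells, with means of 9.21 and 21.1 TPM, against none of the keratinocyte-like AG cells.

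In the test (limma on class means within GHA501A, with the set as a block) 0 of the 10 genes were called, as were 0% of all genes (0 of 12355, and 1665 at an unadjusted p below 0.05, or 13.5%). Jag2 differed by 2.80 ± 0.46 (limma p = 0.0117 unadjusted, adjusted p = 0.271) and Jag1 by 2.11 ± 0.42 (limma p = 0.0190 unadjusted, adjusted p = 0.283), keratinocyte-like minus fibroblast-like. Hes1 differed by 1.18 ± 0.40 (limma adjusted p = 0.408). The comparison has 4 class means, and in simulated data it found 0% of the genes given log2 changes of 2, 4 or 6, so an uncalled gene says little here. The median difference of the 10 was 0.66 and that of the 38 wider genes, of which 0 were called, was -0.11, as for all genes (-0.11).

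Keratinocyte-like cells were then compared between the series, to set like cells beside each other (the plot of class means). Of the 10 genes only Rbpj was called, beside 15.8% of all genes (1955 of 12355), at -3.90 ± 0.82 (AG minus GHA501A, limma adjusted p = 0.0244, and 9.69% of all genes were called lower). This call was lost with no filter on low genes (limma adjusted p = 0.0816), and with either AG set left out, though the value stayed between -4.46 and -3.34. Hes1 was 1.71 ± 0.50 higher in AG (limma adjusted p = 0.0548), by 1.98 among untreated and 1.44 among treated cells, and over the alternatives other than leaving out a set it ranged from 0.89 to 1.77 (limma adjusted p between 0.0327 and 0.424, below 0.05 without the treatment term and with genes kept at 10% of cells). Medians of Hes1 lay closer than its means, at 54.5 TPM in untreated AG and 45.3 TPM in untreated GHA501A keratinocyte-like cells. In treated ones they were 60.95 and 27.3 TPM. The top 5 keratinocyte-like AG cells held 53.5% of the untreated and 50.1% of the treated Hes1 sum. Jag1 differed by 1.84 among untreated and by -0.16 among treated cells (0.84 ± 0.51, limma adjusted p = 0.323). Notch2 differed by -1.10 ± 0.55 (limma adjusted p = 0.229), by -0.64 among untreated and -1.55 among treated cells. Dll1 differed by 0.81 ± 0.50 (limma adjusted p = 0.324). Jag2 differed by -0.26 ± 0.93 and Notch1 by -0.05 ± 0.91 on this scale, with errors wider than the differences. Of the wider list 6 of 38 were called, all lower in AG, among them Itch, Furin, Numb and Kat2b. The median difference was -0.07 for the 10 genes and 0.16 for the 38, beside 0.18 for all genes.

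**Figure D5:**
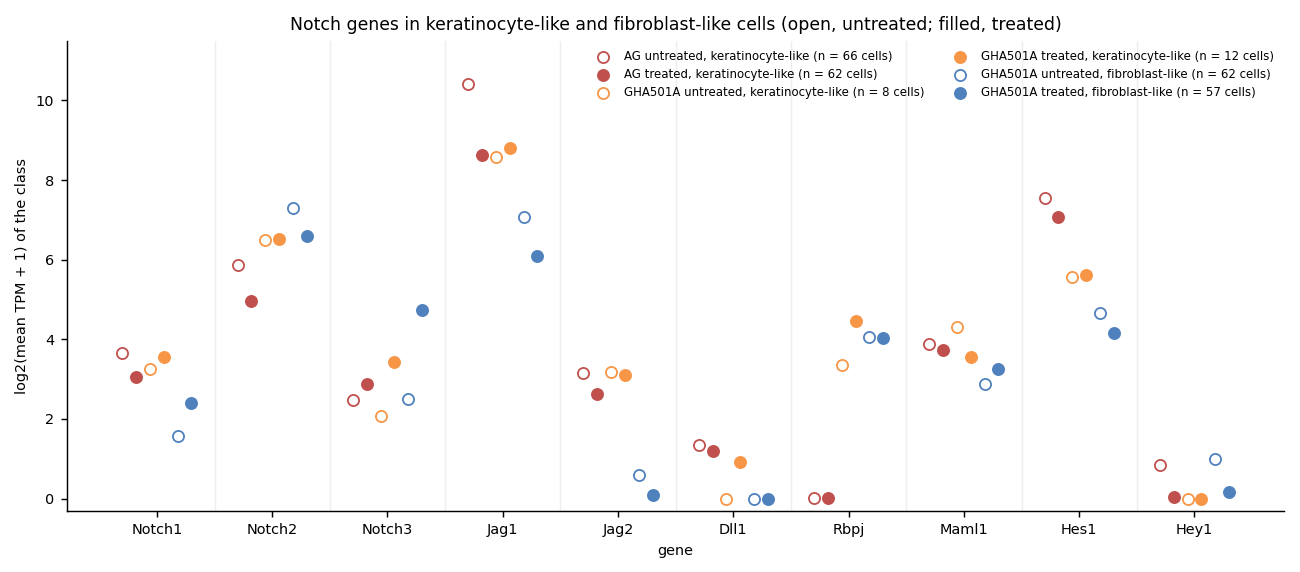
For each gene, the 6 points give log2(mean TPM + 1) of keratinocyte-like AG (red), keratinocyte-like GHA501A (orange) and fibroblast-like GHA501A cells (blue), open for untreated and filled for treated sets. For Jag2 the orange points lie with the red ones and above the blue ones, for Rbpj they lie with the blue ones, and for Hes1 they lie between.

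Ordered by level, the keratinocyte-like AG cells had Jag1 first at 9.53 ± 1.25 (SD over 2 sets, log2(mean TPM + 1)), followed by Hes1 at 7.30 ± 0.34 and Notch2 at 5.42 ± 0.63. In keratinocyte-like GHA501A cells the order was Jag1 at 8.69 ± 0.16, Notch2 at 6.51 ± 0.01 and Hes1 at 5.59 ± 0.05. In fibroblast-like GHA501A cells it was Notch2 at 6.94 ± 0.50 and Jag1 at 6.59 ± 0.70, which lay within their spread, and Hes1 at 4.41 ± 0.35. Lower down, Jag2 and Notch3 in AG, and Maml1 and Rbpj in keratinocyte-like GHA501A cells, lay within their spread as neighbours in the order.

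Differentiation genes were set beside the members. Cdkn1a, the p21 cell-cycle inhibitor that Notch1 is known to raise in keratinocytes, was lower in AG than in GHA501A both over all cells and between keratinocyte-like cells (-3.74 and -4.15, limma adjusted p = 0.000932 and 0.00743). Ivl, the cornified-envelope gene involucrin, and Krt10, a suprabasal keratin, were not called in any of the 4 comparisons. Across cells within a set, r of Notch1 with Krt10 was 0.35 in treated AG cells. In the other sets Notch1 was not detected widely enough to compare. For Hes1 with Krt10, r was -0.32 and -0.26 in untreated and treated AG cells. In untreated and treated GHA501A cells it was 0.06 and -0.09, so the inverse relation seen in AG was not seen there. These weak values are a description of cells with unknown depth.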

How the data were processed

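Per the labels and the study's methods, the authors checked reads with FastQC, trimmed them with Cutadapt and mapped them by TopHat against GRCm38. They left out reads with several alignments, obtained gene counts by featureCounts, and deposited TPM per gene and cell (versions are not given in the sources used here). Captures were imaged and assayed for viability, and the authors kept doublets and non-viable cells out of their later analysis. Whether such captures are in the deposited table is not stated. Of 294 cell columns, 278 matched a label, 16 matched no label and were not used, and 8 AG cells whose name prefix and treatment label conflicted entered only as alternatives. Cells are not replicates, so TPM were averaged per set, or per class of at least 5 cells within a set, and log2(mean TPM + 1) of 12355 genes (TPM over 1 in more than 5 cells) was compared with limma 3.58.1 in R 4.3.3 (two-sided, mean-variance trend, Benjamini-Hochberg). A pseudocount of 1 understates changes of low genes. Shares have 95% Wilson intervals.

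The members, the wider list, the marker lists and the tests were chosen with earlier results of these data known. Named genes are the 10 members, up to 4 called genes of the wider list per comparison, the 3 genes most like each member detected in at least 50% of cells, and 6 differentiation genes, of which Krt1 was detected in too few cells to test, Trp63 was not analysed here and 1 is not reported here. Other computations used Python 3.11.15, pandas 2.3.3, scipy 1.17.1 and scikit-learn 1.9.0. The tests were tried on simulated data: at log2 changes of 2, 4 and 6 in 200 of 12355 genes, 17.5%, 99.5% and 100% were recovered for AG against GHA501A, and 1%, 20% and 97% between keratinocyte-like cells. Alternatives covered the pseudocount, filters, averaging, scaling, block, variance trend, cell classes, conflicting cells and each set left out. Cells with at least 5000 genes (for limma), omission of genes listed in 1 series, dropping the treatment term in the planned fits without a set between the series (which otherwise leave no residual degree of freedom), and the treatment differences by class were added after seeing the data.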

Additional observations from a re-analysis of the deposited data

Results flagged for a closer look

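Notch1, the receptor gene, moved in opposite directions with treatment in the 2 library series. Treated minus untreated on the log2(mean TPM + 1) scale was -0.56 in AG and 0.80 in GHA501A, from 1 pair of sets each, and the difference between the series was not tested. With the 8 AG cells of conflicting labels added by treatment label the AG value was 1.04, so both series were higher in treated cells, and with them added by name prefix it was -1.76. Differences of 0.5 or more in opposite directions were seen in 8.26% of all 12355 genes. The share of cells with Notch1 went the other way in both series, from 39.4% to 64.1% in AG and from 38.03% to 24.6% in GHA501A, and without the highest cell of each set the means were 7.98 and 7.15 TPM in AG and 2.30 and 3.83 TPM in GHA501A.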

How the results depend on the processing

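Depth per cell is unknown, and 2 sets per condition limit what any test can call. Over the member genes and alternatives other than leaving out a set, Hes1, Jag1, Notch2 and Rbpj kept their direction and call between the series (Hes1 between 1.78 and 2.75, Jag1 between 2.12 and 2.94, Notch2 between -1.86 and -1.45, Rbpj between -7.20 and -3.49). Jag2 lost its call with a pseudocount of 0.1, no filter, upper quartile scaling or cells with at least 5000 genes (limma adjusted p between 0.0564 and 0.0885), and Dll1 without the variance trend, with no filter, with the log2 averaged over cells or with the 8 conflicting cells included (log2 difference between 0.31 and 1.15). Notch1 was called at 0.82 with the log2 averaged over cells and at 1.85 with the conflicting cells by treatment label. Where a cause is not given it was not tested.

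With log2 averaged over cells, the genes called were 5 for treated against untreated, 6305 between the series and 3293 between keratinocyte-like cells. The last count was 1287 without the variance trend and 360 with no filter, which tests more genes. A single fit over all class means called 344 genes between the classes. Leaving out each set gave 1865 to 2677 genes between the series and 873 (without untreated AG), 895 (without treated AG) up to 2934 (without untreated GHA501A) between keratinocyte-like cells. Without the block term (the replicate block, here the series, the treatment or the set), 0 genes were called for treatment, 4177 between the series, 0 between the classes and 2100 between keratinocyte-like cells. Sets of the 2 series share no replicate number that pairs them, only the treatment or series label.

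Directions turned for these members. For treatment, Maml1 was -0.11 with averaged log2, -0.0144 with the conflicting cells by label and -0.45 in keratinocyte-like cells only, and Notch1 was -0.48 with the conflicting cells by name prefix (0.92, the direction reported, with them by treatment label) and -0.16 in keratinocyte-like cells only. Without either GHA501A set Notch1 (-0.56 to 0.80), Dll1 (-0.18 to 0.21) and Maml1 (-0.18 to 0.19) took the AG sign. Between the series, averaged log2 gave 0.40 for Notch3 and 0.0180 for Hey1, and leaving out a set gave -1.92 to 0.21 for Notch3 and -0.50 to 0.32 for Hey1. Between the classes, averaged log2 gave 0.32 for Notch3. Ward classes, which put 24 of the 119 fibroblast-like cells with the keratinocyte-like ones, gave 0.67 for Notch2, 3.39 for Notch3 and 0.76 for Rbpj, and leaving out a set gave -0.71 to 0.44 for Rbpj. Between keratinocyte-like cells, averaged log2 gave 0.15 for Notch3 and 0.0759 for Maml1, a cut at 0 gave 0.0713 for Notch1, and cells with at least 5000 genes gave 0.0435 for Notch3. Leaving out a set there gave -0.76 to 0.59 for Notch3, -0.0510 to 1.72 for Jag1, -0.36 to 0.26 for Notch1, -0.53 to 0.0067 for Jag2 and -0.50 to 0.26 for Maml1.

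Counting TPM over 0, the share of untreated GHA501A cells with a ligand, and with both, was 100%, and that of treated GHA501A cells 98.6%. Counting TPM over 5 gave 81.7% and 85.5% for these, and 89.1% of treated AG cells with both. In cells with at least 5000 genes the shares of untreated and treated AG cells with a receptor, and with both, were 100%.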

Other observations

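The 8 AG cells whose name prefix and treatment label disagree, 5 labelled treated and 3 labelled untreated, belong to no group of the report. With them included by treatment label, 36.2% of 69 untreated AG cells held Jag2 or Dll1, beside 36.4% of 66 without them.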
